A study of Mus musculus with 48 samples.

Results

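The unfolded protein response and the amino acid response were followed through 10 genes in mouse kidneys after loss of renal mass. The genes were Creld2, Hspa5, Ddit3, Atf4, Asns, Trib3, Chac1, Herpud1, Sdf2l1 and Xbp1, chosen by name, and they were 10 of the 13174 genes tested. Each gene was read by the probe set that names it alone and has the highest mean over the 48 arrays. The groups were FVB mice (lesion-predisposed) after subtotal nephrectomy (Nx), FVB mice after a sham operation, C57BL/6 (B6) mice (lesion-non-predisposed) after Nx, and B6 mice after a sham operation. Each was sampled at day 2, day 28 and day 53 after surgery performed at 9 weeks of age, with 4 mice in each of the 12 groups and 1 array per mouse. RNA came from frozen whole kidney, and no engineered allele or drug is named in the labels. Subtotal nephrectomy leaves a remnant of kidney tissue, and sham surgery leaves the kidneys in place.

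When unfolded proteins collect in the endoplasmic reticulum (ER), the sensors PERK, IRE1 and ATF6 start the unfolded protein response. PERK phosphorylates the translation factor eIF2α, which lowers general translation and favours the translation of ATF4 mRNA. IRE1 splices Xbp1 mRNA, and the XBP1 and ATF6 proteins raise transcription of ER chaperones and degradation factors. Shortage of amino acids reaches ATF4 through a different eIF2α kinase, GCN2, so ATF4 targets respond to either kind of stress. ATF4 is controlled largely at translation and XBP1 by splicing, and neither the protein nor the spliced form was measured on these arrays. Tubular cells make up most of the kidney cortex, and ER stress in them has been studied in proteinuric and progressive kidney disease.

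The promoters show which members carry the DNA elements known for each branch, and windows are shown for the members that held a match, except Chac1, which lay near the floor of the arrays. The ER stress response element (ERSE, searched as CCAAT, 9 bases of any kind, then CCACG) binds ATF6 together with NF-Y. ERSE-II was searched as ATTGG, any base, then CCACG, the unfolded protein response element bound by XBP1 as TGACGTGG, and the C/EBP-ATF response element bound by ATF4 as TGATGNAA. Both strands of the 250 bases before the RefSeq gene starts used (assembly GRCm38.p6) were searched, all 10 members matched an entry, and capitals mark the fixed letters of each match.
Hspa5: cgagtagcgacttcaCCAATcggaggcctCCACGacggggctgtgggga
Creld2: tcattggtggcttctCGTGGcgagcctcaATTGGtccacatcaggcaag
Herpud1: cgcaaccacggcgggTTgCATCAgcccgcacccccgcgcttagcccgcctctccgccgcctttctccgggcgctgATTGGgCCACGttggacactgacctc
Asns: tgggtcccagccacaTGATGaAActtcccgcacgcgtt
The Hspa5 window (chr2:34772010-34772058, plus strand) holds an ERSE 65 to 47 bases before the start. The Creld2 window (chr15:88819505-88819553, plus strand) holds one on the opposite strand, 126 to 108 bases before the start. Herpud1 (chr8:94386302-94386402, plus strand) holds an ATF4-type element on the opposite strand and an ERSE-II, 112 to 105 and 52 to 42 bases before the start. Asns (chr6:7693210-7693247, minus strand) holds an ATF4-type element 23 to 16 bases before the start, and Chac1 holds one on the opposite strand 193 to 186 bases before it. Among 32851 promoters the shares with a match were 0.113% for ERSE, 0.0304% for ERSE-II, 0.563% for the XBP1 element and 3.45% for the ATF4-type element. These promoters leave out a single chromosome, which holds no member, and shorter sequences were not counted. No match to these letters lay in the windows of Ddit3, Atf4, Trib3, Sdf2l1 or Xbp1, no member held the XBP1 element, and a match describes the sequence only.

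All values are log2 signals as deposited, so a difference of 1 is a doubling, and differences are Nx minus sham unless stated. A gene is called where its limma p-value, adjusted by the Benjamini-Hochberg method over all 13174 genes, is under 0.05. Across the arrays the signals spanned 2.20 to 16.18, and 32.1% of values sat at the lowest one. The kidney changed widely with surgery. Proximal tubule markers averaged 11.7 to 13.2 on Nx arrays, against 13.1 to 13.3 on sham arrays. Macrophage markers averaged 8.28 to 11.5 on Nx arrays, against 6.29 to 7.89 on sham arrays. The tubule markers were high on all arrays. In whole-kidney RNA fewer cells of a type and less RNA per cell cannot be told apart. Pancreatic enzyme genes were also read: the mean of 17 of them was above 5 on 16 of 24 Nx arrays (range 2.44 to 14.5), against 2 of 24 sham arrays (range 2.41 to 10.0). Several results below are given with and without those 18 arrays. Leaving them out keeps 1 Nx array per strain at day 2 and at day 28 and 2 at day 53, and a lone array shows no spread of its own. Array medians lay between 3.17 and 3.44, not far above the lowest value, so making them equal shifts each array by a low signal. With equal array medians the median gene stood at -0.20 in FVB at day 2, -0.17 in FVB at day 53 and -0.14 in B6 at day 2, where the deposited values gave -0.03, -0.01 and -0.02.

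In FVB kidneys Asns was higher after Nx at all 3 days and Atf4 at days 2 and 53, while Creld2 and Herpud1 were lower at days 2 and 53. Small increases were called for Xbp1 at days 2 and 53 and for Chac1 at day 2. Hspa5, Sdf2l1, Ddit3 and Trib3 were not called at any day. In FVB at day 2, 4 members were higher and 2 lower, where 54.8% of all genes were called (24.8% higher and 30.0% lower). In FVB at day 28, 1 was higher and none lower, where 16.2% of all genes were called (7.35% higher). In FVB at day 53, 3 were higher and 2 lower, where 53.7% of all genes were called (25.9% higher and 27.8% lower). In B6 at day 2, 2 were higher and 1 lower, where 44.6% of all genes were called (20.2% higher and 24.4% lower). In B6 no member was called at day 28 or at day 53, where 19.0% and 14.7% of all genes were called and 1 and 2 members had an unadjusted p under 0.05. The members' share was near the background at day 2 and day 53 in FVB and no higher than it elsewhere, so these counts are not a result about the members. Their median difference was 0.11, 0.07 and 0.06 in FVB at days 2, 28 and 53, beside -0.03, -0.02 and -0.01 over all genes. In B6 it was 0.03, 0.08 and -0.08, beside -0.02, -0.02 and -0.01.

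**Figure D1:**
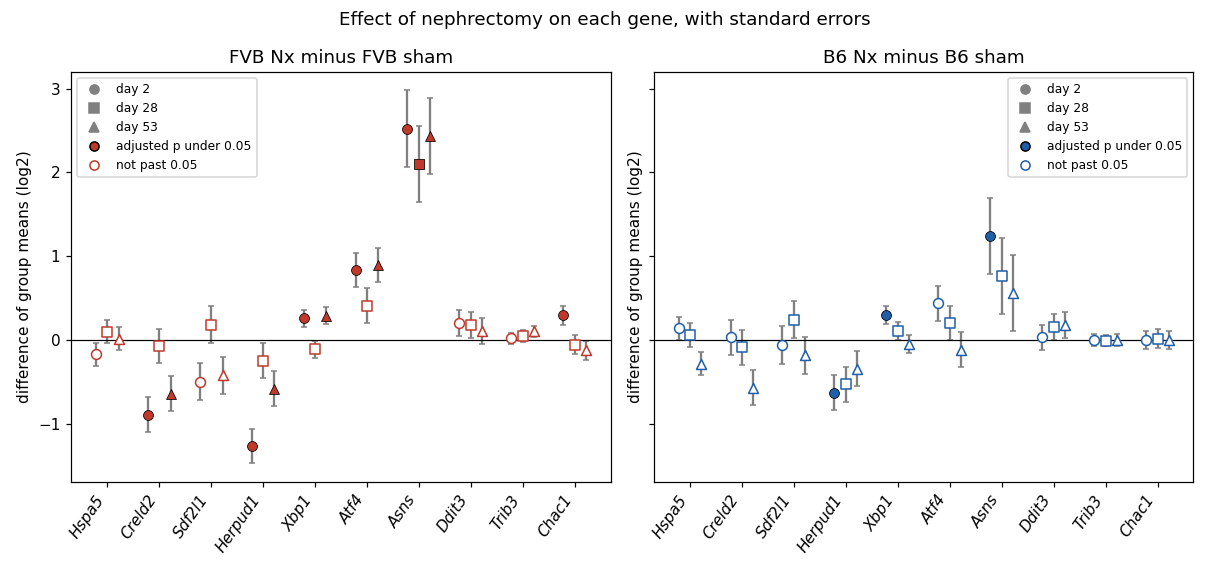
Difference between Nx and sham kidneys (log2, with standard error) for each of the 10 genes at day 2, 28 and 53 in FVB and B6 mice. Filled points had an adjusted p under 0.05; Asns stands highest in FVB at all 3 days (2.52, 2.10 and 2.43), and Herpud1 and Creld2 stand below 0 at day 2 in FVB (-1.26 and -0.89).

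Atf4 encodes the transcription factor shared by both responses, and its mRNA was higher in FVB Nx kidneys at day 2 and day 53. At day 2 it read 10.18, 10.44, 10.59 and 10.94 in FVB Nx kidneys, against 9.37, 9.54, 9.84 and 10.06 in FVB sham kidneys. At day 53 it read 10.72, 10.89, 10.89 and 11.05 in FVB Nx kidneys, against 9.40, 9.80, 10.32 and 10.45 in FVB sham kidneys. Every FVB Nx array lay above every FVB sham array on both days. The differences were 0.83 ± 0.21 (SE, 1.78-fold, adjusted p = 0.000798) and 0.90 ± 0.21 (1.86-fold, adjusted p = 0.000357). At day 28 the difference was 0.41 (adjusted p = 0.188), with means of 10.43 in FVB Nx and 10.02 in FVB sham kidneys. In B6 mice Atf4 was not called: the differences were 0.44, 0.20 and -0.11 at days 2, 28 and 53 (adjusted p = 0.0874, 0.57 and 0.825). At day 53 B6 Nx kidneys read 9.45, 9.46, 9.95 and 9.99, against 9.66, 9.85, 9.88 and 9.91 in B6 sham kidneys, so the B6 Nx arrays lay on both sides of the sham arrays. The Nx effect at day 53 was larger in FVB than in B6 by 1.01 ± 0.29 (2.01-fold, adjusted p = 0.00796), and it ran from 0.81 to 1.16 when any 1 array was left out. At day 53, 29.1% of all genes differed between the strains in this way (14.2% with the higher value in FVB), and 2 members did, Atf4 and Asns, both with the higher value in FVB. The Atf4 probe set belongs to a class that may also bind related transcripts. A second Atf4 probe set gave 0.11 in FVB at day 2 (adjusted p = 0.593) and 0.50 at day 53, where it read 9.97 to 10.35 in FVB Nx kidneys and 9.41 to 10.19 in FVB sham kidneys, so the day 2 increase rests on 1 probe set. The strain difference on that probe set at day 53 was 0.51 (adjusted p = 0.0633).

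Xbp1, the transcription factor of the IRE1 branch, changed little in total mRNA. It averaged 12.80 in FVB Nx and 12.55 in FVB sham kidneys at day 2 (difference 0.26 ± 0.10, adjusted p = 0.0327), and 12.90 against 12.61 at day 53 (0.29, adjusted p = 0.0162). In B6 it read 12.45, 12.69, 12.75 and 12.82 in Nx kidneys at day 2, against 12.33, 12.37, 12.39 and 12.42 in sham kidneys (0.30, adjusted p = 0.0167), with no overlap between the groups. At day 28 FVB Nx kidneys lay lower than FVB sham kidneys by 0.11 without being called. A second Xbp1 probe set gave 0.33 and 0.46 in FVB at days 2 and 53 (adjusted p = 0.0284 and 0.00273) and 0.31 in B6 at day 2 (adjusted p = 0.0539), and the other 2 probe sets gave 0.18 to 0.42 in these 3 comparisons. The calls on the first probe set depended on scaling and on single arrays. With equal array medians the differences were 0.09 and 0.13 in FVB and 0.18 in B6 (adjusted p = 0.494, 0.305 and 0.17), and without the pancreas-bearing arrays they were 0.23, 0.17 and 0.37 (adjusted p = 0.276, 0.253 and 0.079). The FVB call at day 2 was lost without Nx mouse 4 (0.22), Nx mouse 5 (0.21) or sham mouse 5 (0.22), at day 53 without Nx mouse 4 (0.24) or sham mouse 5 (0.26), and in B6 at day 2 without Nx mouse 9 (0.25).

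Ddit3 encodes CHOP, a transcription factor induced by ATF4 under lasting ER stress and linked to cell death. It was not called for surgery on any day in either strain, with differences of 0.20, 0.18 and 0.11 in FVB and 0.03, 0.16 and 0.18 in B6 at days 2, 28 and 53 (adjusted p = 0.277 to 0.922). FVB Nx kidneys read 7.84 to 8.47 over the 3 days, against 7.68 to 8.51 in FVB sham kidneys. The ranges overlapped almost fully.

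Asns, asparagine synthetase, is a classical ATF4 target of the amino acid response and showed the largest differences among the 10 genes. At day 2 it read 7.08, 7.12, 8.94 and 9.67 in FVB Nx kidneys, against 5.13, 5.62, 5.79 and 6.17 in FVB sham kidneys. At day 28 it read 5.81, 6.84, 7.59 and 8.26 in FVB Nx kidneys, against 4.68, 4.86, 4.96 and 5.61 in FVB sham kidneys. At day 53 it read 7.96, 8.16, 8.37 and 8.46 in FVB Nx kidneys, against 4.98, 5.25, 6.30 and 6.71 in FVB sham kidneys. The Nx arrays lay above all sham arrays on every day, spread widely at day 2 and day 28 and close together at day 53. The differences were 2.52, 2.10 and 2.43 (each ± 0.45 SE), which is 5.75-fold, 4.28-fold and 5.39-fold (adjusted p = 1.03e-05, 0.000942 and 1.81e-05). In B6 at day 2 it read 6.83, 7.25, 7.61 and 8.51 in Nx kidneys, against 5.99, 6.30, 6.46 and 6.49 in sham kidneys, again without overlap. That difference was 1.24 (2.36-fold, adjusted p = 0.0243), and it was 0.76 at day 28 and 0.56 at day 53 (adjusted p = 0.265 and 0.485, the last with a 95% interval of -0.36 to 1.48). The B6 call at day 2 was lost without Nx mouse 11 (0.92, adjusted p = 0.13) or sham mouse 2 (1.13, adjusted p = 0.0646), and a second Asns probe set gave 0.76 there (adjusted p = 0.187). In FVB that second probe set gave 1.95, 1.97 and 2.03, and in B6 at days 28 and 53 it gave 0.42 and 0.15. Like the Atf4 probe set, the Asns probe set used is of a class that may also bind related transcripts.

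The Nx effect on Asns at day 53 was larger in FVB than in B6 by 1.87 ± 0.64 (3.66-fold, adjusted p = 0.0242). The strain differences at day 2 and day 28 were 1.28 and 1.34 (adjusted p = 0.27 and 1), and they were not called. No member was called for the strain difference at day 2 or day 28, where 4.41% and 0.129% of all genes were, and 2 and 1 members had an unadjusted p under 0.05. The day 53 call narrowly missed the threshold without B6 Nx mouse 2 (1.75, adjusted p = 0.0518), B6 sham mouse 6 (1.73, adjusted p = 0.051), FVB sham mouse 1 (1.69, adjusted p = 0.0563) or FVB sham mouse 5 (1.60, adjusted p = 0.0689).

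Asns is highly expressed in the pancreas, and its level moved with the pancreatic enzyme genes within the groups. In FVB Nx kidneys at day 2 the enzyme mean was 2.44, 9.33, 13.6 and 14.5 on the arrays where Asns read 7.12, 7.08, 8.94 and 9.67. In FVB Nx kidneys at day 28 the enzyme mean was 2.49, 12.5, 13.2 and 13.9 where Asns read 5.81, 6.84, 7.59 and 8.26. In FVB Nx kidneys at day 53 the enzyme mean was 2.81, 3.72, 6.95 and 13.0 where Asns read 7.96, 8.16, 8.37 and 8.46. The arrays with the most pancreatic signal had the highest Asns on each day. At day 53 the 2 FVB Nx arrays with an enzyme mean under 5 (2.81 and 3.72) read 7.96 and 8.16 for Asns. The FVB sham arrays of that day read 4.98 to 6.71, with enzyme means of 2.41 to 2.50. The cause of the Asns difference was not tested. Without the arrays above 5 the FVB difference was 1.44 at day 2 (adjusted p = 0.0355), 0.98 at day 28 (adjusted p = 0.396) and 2.25 at day 53 (adjusted p = 0.000114), and the B6 difference at day 2 was 0.94 (adjusted p = 0.207). Those fits keep 1 Nx array per strain at day 2 and at day 28 and 2 at day 53, and a lone array is assumed to vary like the other groups. With the enzyme mean as a covariate on all arrays the FVB differences were 1.73, 1.50 and 1.99 (adjusted p = 0.000623, 0.00735 and 3.83e-05) and the B6 difference at day 2 was 0.62 (adjusted p = 0.218). The strain difference at day 53 was 1.75 without the arrays and 1.80 with the covariate (adjusted p = 0.0281 and 0.00881). Atf4 kept its calls in FVB without the pancreas-bearing arrays, with 1.24 at day 2 and 0.90 at day 53 (adjusted p = 0.00506 and 0.00685).

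**Figure D2:**
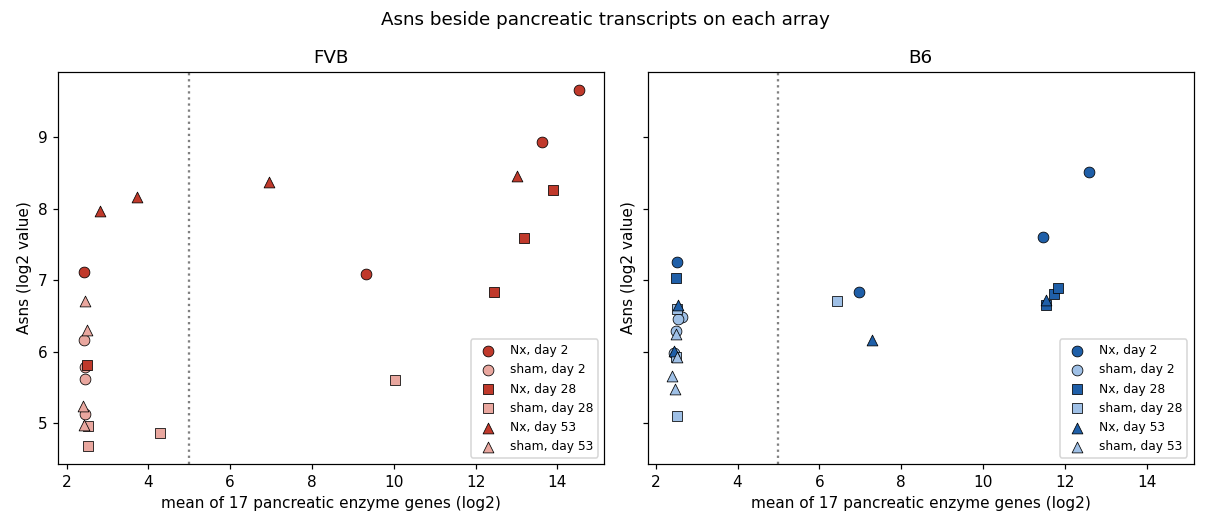
Asns signal against the mean signal of 17 pancreatic enzyme genes (both log2) on each of the 48 arrays, by strain and surgery; the dotted line marks an enzyme mean of 5. FVB Nx arrays at day 53 lie between 7.96 and 8.46 on both sides of the line, above all FVB sham arrays of that day (4.98 to 6.71).

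Trib3 and Chac1, ATF4 targets that encode a pseudokinase and a glutathione-degrading enzyme, were close to the floor of the arrays. All 10 members passed the filter on low values, but Trib3 read 2.41, its most common value, on 41 of 48 arrays and Chac1 read 2.20 on 35. Chac1 in FVB Nx kidneys at day 2 read 2.20, 2.20, 2.59 and 2.99, while the 4 FVB sham arrays read 2.20. The call there (0.29, adjusted p = 0.0215) stood for an increase of at least 1.19-fold and was lost without Nx mouse 4 (0.26) or Nx mouse 5 (0.13), and the arrays without pancreatic signal gave no difference. A second Trib3 probe set read 2.34, 2.63, 2.71 and 3.83 in FVB Nx kidneys at day 53, and no array outside that group read above 2.48. All 4 FVB sham arrays of that day read 2.20 (difference 0.68). This probe set was above the filter value on 6 of 48 arrays, 4 of them in that Nx group. It thus passed the filter only through the group where it is high, and no p-value is given for it. The probe set used for Trib3 gave 0.10 in the same comparison and was not called.

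Creld2 and Sdf2l1, ER proteins induced by ATF6 and XBP1, and Hspa5, the chief ER chaperone BiP, stand for the folding side. Creld2 was lower after Nx in FVB at day 2 and day 53. At day 2 it read 9.86, 10.38, 10.54 and 10.88 in FVB Nx kidneys, against 11.13, 11.30, 11.38 and 11.43 in FVB sham kidneys. At day 53 it read 9.74, 9.76, 9.91 and 10.27 in FVB Nx kidneys, against 10.13, 10.47, 10.60 and 11.05 in FVB sham kidneys. The groups were apart at day 2, and at day 53 the highest Nx array lay above the lowest sham array. The differences were -0.89 ± 0.21 (1.86-fold lower, adjusted p = 0.000358) and -0.64 ± 0.21 (1.56-fold lower, adjusted p = 0.0087), and the day 53 call was lost without sham mouse 5 (-0.48, adjusted p = 0.0639). Without the pancreas-bearing arrays they were -1.44 at day 2, with 1 Nx array left, and -0.74 at day 53 (adjusted p = 0.00999). At day 28 the FVB groups did not separate (-0.07, adjusted p = 0.908). In B6, Creld2 at day 2 averaged 9.38 in Nx and 9.35 in sham kidneys. At day 53 it read 9.05, 9.14, 9.27 and 9.31 in B6 Nx kidneys, against 9.50, 9.64, 9.79 and 10.12 in B6 sham kidneys, without overlap but not called (-0.57, adjusted p = 0.0575). The strain difference at day 2 was -0.92 (adjusted p = 0.0614). Non-overlap by itself was common: in FVB at days 2, 28 and 53 it held for 4, 1 and 2 members and for 43.9%, 21.2% and 46.1% of all genes, and in B6 for 3, 0 and 2 members and for 40.1%, 19.6% and 21.7%.

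Sdf2l1 was not called for surgery. It read 8.32, 8.81, 8.95 and 9.38 in FVB Nx kidneys at day 2, against 9.24, 9.38, 9.40 and 9.41 in FVB sham kidneys (-0.50, adjusted p = 0.056). A single Nx array reached the sham range and the other 3 lay below it. The difference was -0.67 with equal array medians (adjusted p = 0.00839), so the call depended on scaling. Without the pancreas-bearing arrays it was -1.04, with 1 Nx array left. At day 53 the difference was -0.42 (adjusted p = 0.107), and -0.58 with equal medians (adjusted p = 0.0209). In B6 at day 28 the Sdf2l1 difference was 0.24, and 0.96 without the pancreas-bearing arrays. That fit keeps 1 Nx array, mouse 3 (8.68), while the other Nx arrays of the group read 7.86 to 7.92. Hspa5 ran near the top of the signal range, at 13.69 to 14.13 in FVB Nx kidneys at day 53, against 13.73 to 14.08 in FVB sham kidneys. Its difference there was 0.02 with a 95% interval of -0.27 to 0.30. In FVB at day 2 it was -0.17 (adjusted p = 0.307), and -0.35 with equal medians (adjusted p = 0.0299). In B6 the largest Hspa5 difference was -0.28 at day 53 (adjusted p = 0.185).

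Herpud1, an ER membrane protein of ER-associated degradation, was the member with the largest decrease. At day 2 it read 10.53, 10.61, 10.75 and 10.96 in FVB Nx kidneys, against 11.89 to 12.02 on the 4 arrays of FVB sham kidneys. In B6 at day 2 it read 10.55, 10.84, 10.87 and 11.01 in Nx kidneys, against 11.24, 11.36, 11.55 and 11.63 in sham kidneys. Neither strain had overlap between its groups, and the FVB sham arrays were almost equal to each other. The differences were -1.26 ± 0.21 in FVB (2.40-fold lower, adjusted p = 2.06e-06) and -0.63 in B6 (1.54-fold lower, adjusted p = 0.0122), and the strain difference of -0.64 was not called (adjusted p = 0.222). The B6 value was -0.43 when the pancreas-bearing arrays were left out, which keeps 1 Nx array. At day 53 Herpud1 read 10.79, 11.24, 11.47 and 11.75 in FVB Nx kidneys, against 11.68, 11.88, 11.99 and 12.02 in FVB sham kidneys (-0.58, 1.50-fold lower, adjusted p = 0.0164). This call was lost without Nx mouse 10 (-0.41, adjusted p = 0.109). In B6 at day 28 and day 53 the differences were -0.53 and -0.34 (adjusted p = 0.0682 and 0.306). At day 28 the value without the pancreas-bearing arrays was -0.92, and that fit keeps 1 Nx array, mouse 3. A second Herpud1 probe set gave -1.31, -0.18 and -0.65 in FVB and -0.79, -0.58 and -0.33 in B6. Tubule markers were lower in the same kidneys: 10 of 14 proximal tubule genes and 8 of 8 loop and distal tubule genes were lower in FVB at day 2. The part of tubule loss in the Herpud1 difference was not tested.

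**Figure D3:**
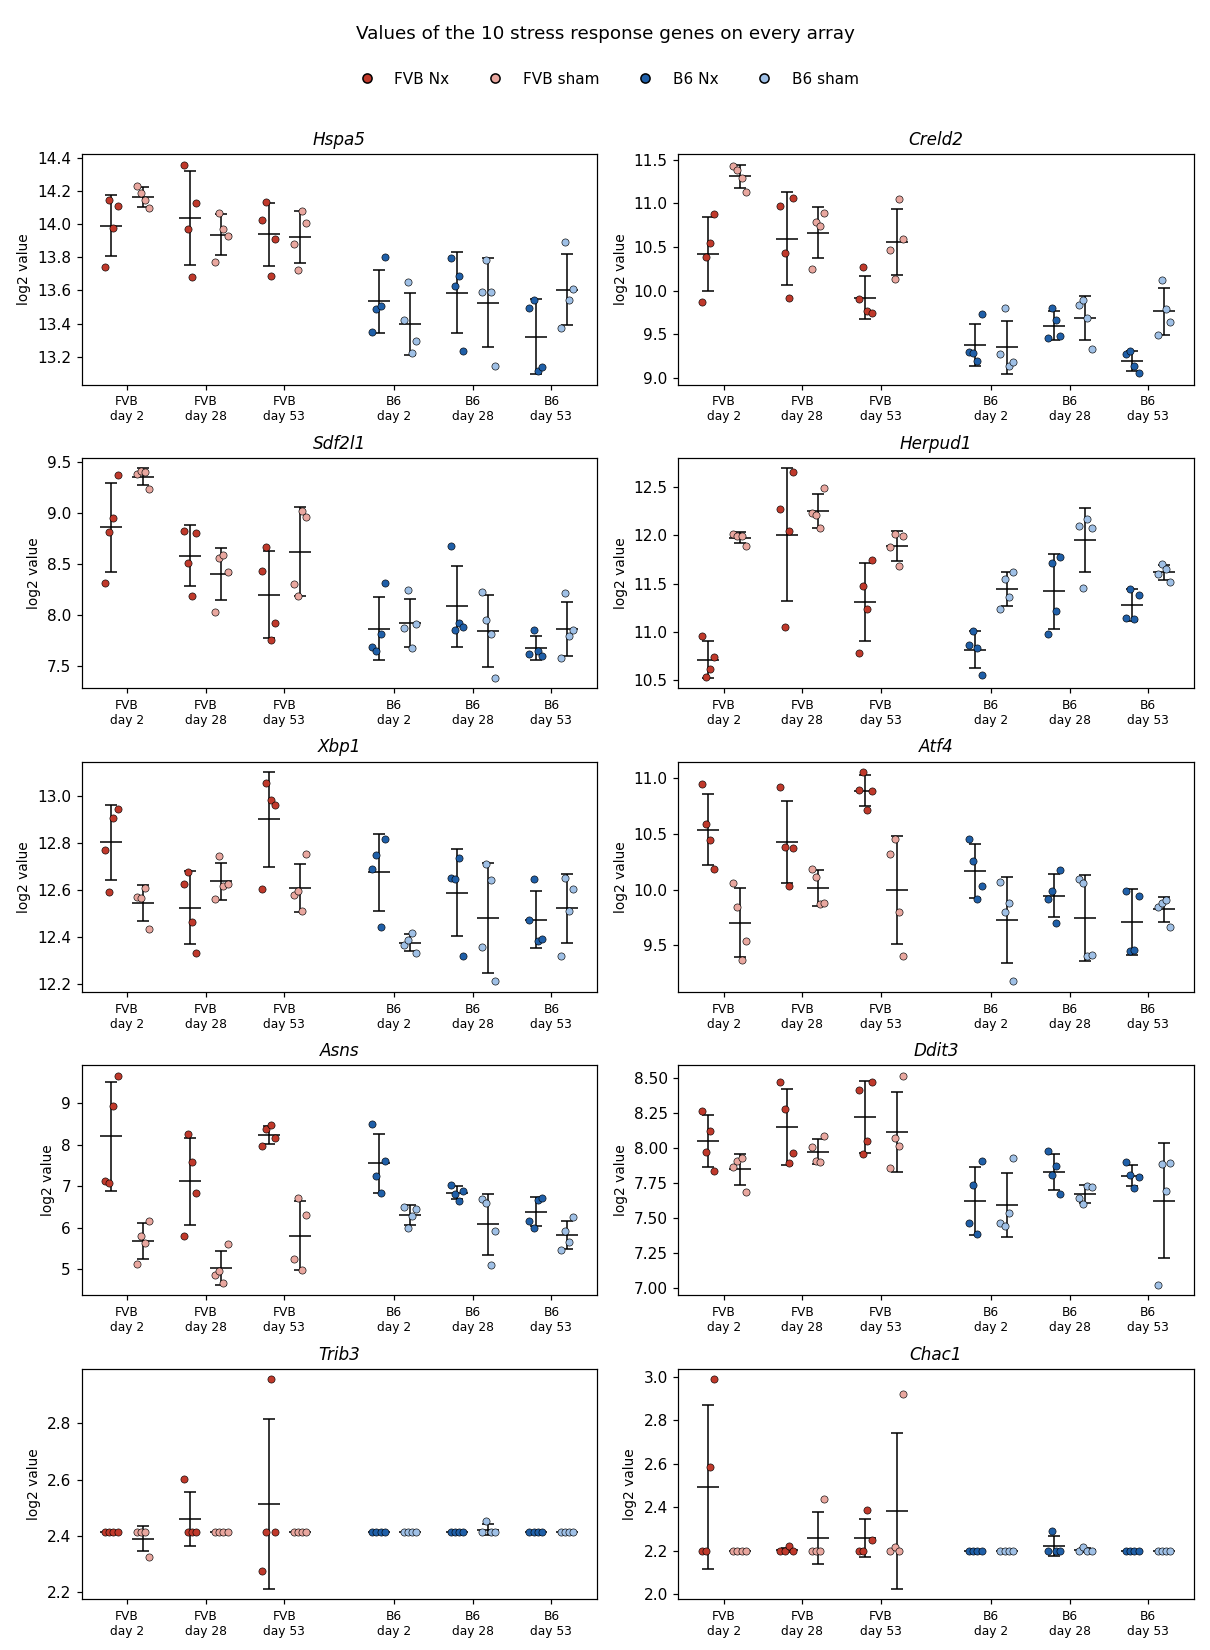
Signal (log2) of the 10 genes on each of the 48 arrays by day, with FVB Nx, FVB sham, B6 Nx and B6 sham groups (points, single mice; bars, mean ± SD, n = 4). Asns is higher in all 4 FVB Nx arrays than in any FVB sham array at each day, Herpud1 is lower at day 2 in both strains, and Creld2 is higher in FVB than in B6 sham kidneys.

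The Nx effect did not run the same way through time in every gene. From day 2 to day 28 the FVB effect on Herpud1 moved up by 1.02 (adjusted p = 0.00893) and that on Creld2 by 0.82 (adjusted p = 0.035). Both were lower after Nx at day 2 and close to sham at day 28. Herpud1 averaged 10.71 and 12.01 in FVB Nx kidneys at days 2 and 28, against 11.98 and 12.26 in FVB sham kidneys. Creld2 averaged 10.42 and 10.60 in FVB Nx kidneys, against 11.31 and 10.67 in FVB sham kidneys, so its shift lay mostly in the sham groups. These 2 members were called where 25.2% of all genes were (12.8% upward). The Creld2 value ran from 0.64 to 0.81 in the 7 of 16 single-array omissions that ended the call, which were FVB Nx mice 1 and 2 of day 2, FVB Nx mice 2 and 8 of day 28, sham mice 1 and 2 of day 2 and sham mouse 1 of day 28. The shifts were 1.11 for Herpud1 and 1.83 for Creld2 without the pancreas-bearing arrays, a fit that keeps 1 FVB Nx array at each of these days. From day 28 to day 53 only the FVB effect on Xbp1 was called, at 0.40 (adjusted p = 0.0373), where 26.3% of all genes were called (13.7% upward). That call was lost in 10 of 16 single-array omissions (Nx mice 7 and 8 of day 28, Nx mice 4, 7 and 8 of day 53, sham mice 2 and 4 of day 28, and sham mice 1, 3 and 5 of day 53), and it was 0.29 with equal array medians (adjusted p = 0.162). In B6 no member was called for either change, where 8.86% and 0.00% of all genes were, and none had an unadjusted p under 0.05.

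Without nephrectomy the strains differed in the folding genes. Over the 12 sham arrays of each strain, 5 of the 10 members were higher in FVB and none was lower, where 32.5% of all genes were called (16.9% higher in FVB). Creld2 had a median of 10.84 (10.13 to 11.43) in FVB sham kidneys, against 9.66 (9.14 to 10.12) in B6 sham kidneys, and the strains did not overlap. The difference was 1.24 ± 0.12 (2.37-fold, adjusted p = 3.09e-11). Sdf2l1 had a median of 8.78 (8.03 to 9.41) in FVB sham kidneys, against 7.86 (7.38 to 8.24) in B6 sham kidneys, a difference of 0.92 (1.89-fold, adjusted p = 2.09e-07). Hspa5 had a median of 14.04 (13.73 to 14.23) in FVB sham kidneys, against 13.57 (13.15 to 13.89) in B6 sham kidneys, a difference of 0.50 (1.41-fold, adjusted p = 3.8e-06). These last 2 genes overlapped slightly between the strains. Herpud1 and Ddit3 were higher in FVB sham kidneys by 0.37 and 0.35 (adjusted p = 0.0143 and 0.00182), while a second Ddit3 probe set gave 0.03. Other Hspa5 probe sets gave 0.55 and 0.16, and a second Herpud1 probe set gave 0.35. Atf4 (0.14, adjusted p = 0.436), Xbp1 (0.14, adjusted p = 0.0753) and Asns (-0.57, adjusted p = 0.0961) were not called. The other Xbp1 probe sets gave 0.19 to 0.21, a second Asns probe set -0.68 and a second Atf4 probe set 0.16. Besides single-array omissions, the Asns difference passed in 5 of 12 alternative settings and the Xbp1 difference in 4 of 12. For Asns these included the fit without the pancreas-bearing arrays and that with the enzyme covariate (adjusted p = 0.0394 and 0.027). By day the Creld2 difference between sham strains was 1.96, 0.98 and 0.80 at days 2, 28 and 53, without overlap on any day. The Sdf2l1 difference was 1.44, 0.56 and 0.76 and the Hspa5 difference 0.77, 0.41 and 0.32, with no overlap at day 2. The change of these strain differences with day was not tested.

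Creld2, Hspa5 and Sdf2l1 ranked the 12 groups in a similar way. Across the 12 group means Pearson's r was 0.94 for Creld2 with Hspa5, 0.93 for Creld2 with Sdf2l1 and 0.90 for Hspa5 with Sdf2l1. Within groups, across the 48 arrays, the values were 0.79, 0.78 and 0.79. These are descriptions, and the points share surgery, strain and array normalization. All 3 genes were highest in FVB sham kidneys at day 2 and lowest in B6 Nx kidneys at day 53, and for Creld2 only the step from the highest group to the next was free of overlap. Atf4 followed Xbp1 (0.85) and Asns (0.79) over group means and not over arrays within groups (-0.05 and -0.14). Asns and Herpud1 ran opposite ways over group means (-0.77). The Asns order began with FVB Nx at day 53 (mean 8.24), FVB Nx at day 2 (8.20) and B6 Nx at day 2 (7.55) and ended with FVB sham at day 28 (5.03), and no neighbouring pair was without overlap. Herpud1 was lowest in FVB Nx at day 2 (10.71) and B6 Nx at day 2 (10.82), and B6 Nx at day 2 stood below B6 Nx at day 53 (11.28) without overlap. Over the genes tested, with unnamed gene models skipped, the profile most like Hspa5 over the 12 group means was that of Manf (r = 0.995), a secreted ER stress protein. Hsp90b1 (0.969), the ER chaperone GRP94, followed. The nearest to Sdf2l1 was Hyou1 (0.954), an ER chaperone, and the nearest to Atf4 was Slc7a5 (0.970), a large neutral amino acid transporter. The nearest to Asns were Pprc1 (0.965) and Cep170 (0.965), and the nearest to Creld2 was Tmco6 (0.954). For Herpud1 it was Dgkq (0.960), for Xbp1 Spast (0.953), for Ddit3 Gosr2 (0.952) and for Chac1 Prcd (0.915). For Trib3, near the floor, it was Myhas (0.979), followed by the muscle marker Acta1 (0.976).

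The wider lists, which hold none of the 10 members, covered the other genes of both responses. Of 19 measured ATF4 target genes, 10 were higher and 5 lower in FVB at day 2 (median 0.58), where 24.8% of all genes were higher and 30.0% lower (median -0.03). At day 53 in FVB, 11 were higher and 4 lower (median 0.50), where 25.9% of all genes were higher and 27.8% lower (median -0.01). In B6 at day 2, 7 were higher and 4 lower (median 0.34), where 20.2% of all genes were higher and 24.4% lower. At day 53 in B6, 1 was higher and none lower (median 0.09), where 14.7% of all genes were called. These shares and medians over all genes apply to the same comparisons below. Atf3, a stress transcription factor, stood highest, at 3.64 in FVB at day 2 and 4.52 at day 53 (adjusted p = 3.43e-08 and 2.63e-10) and at 2.73 in B6 at day 2 (adjusted p = 1.19e-05). Cebpb, a transcription factor that dimerises with ATF4, rose by 1.67 and 2.10 in FVB at days 2 and 53, and Ddit4, an inhibitor of mTORC1, rose by 1.93 at day 53. Genes of the list that were lower included the transport subunit gene Slc3a2 (-1.35 in FVB at day 2, adjusted p = 4.14e-09) and the transsulfuration enzymes Cbs (-2.61 at day 53, adjusted p = 1.64e-08) and Cth (-1.69 at day 53, adjusted p = 8.82e-17). Without the pancreas-bearing arrays the counts were 6 higher and 5 lower in FVB at day 2, 11 and 4 at day 53, and 3 and 4 in B6 at day 2. The Nx minus sham difference at day 53 was higher in FVB than in B6 for 8 of the 19 and lower for 3, where 29.1% of all genes were called (14.2% higher). Among the 8 were Atf3 (3.71), Ddit4 (1.95) and Slc7a5 (1.93), with adjusted p = 6.53e-05, 0.000478 and 0.000479. Atf3 and Cebpb are also active in inflammatory cells, and all 12 macrophage markers were higher in FVB at days 2 and 53 and in B6 at day 2. The part of inflammatory cells in these counts was not tested.

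Of 10 serine, proline and one-carbon synthesis genes, 5 were higher and 2 lower in FVB at day 2 and 4 were higher and 4 lower at day 53, where 54.8% and 53.7% of all genes were called. Aldh18a1, the first enzyme of proline synthesis, was higher in FVB by 3.15, 1.79 and 2.33 at days 2, 28 and 53 and in B6 by 2.63 at day 2 and 1.61 at day 53. At day 53 in FVB the mitochondrial folate enzymes Mthfd1l and Mthfd2 rose by 2.16 and 2.03, while Shmt2, Shmt1 and Mthfd1, also folate enzymes, were at -1.40, -1.14 and -0.87. Of 19 aminoacyl-tRNA synthetases, which charge tRNAs and include ATF4 targets, 4 were higher and 6 lower in FVB at day 2, while 6 were higher and none lower at day 53, against 24.8% and 30.0% of all genes at day 2 and 25.9% and 27.8% at day 53. In B6 they were 5 higher and 0 lower at day 2, against 20.2% and 24.4% of all genes, and none was called at day 53, against 14.7%.

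Of the 21 ER chaperone and folding genes, 3 were higher and 9 lower in FVB at day 2 (median -0.13), where 24.8% of all genes were higher and 30.0% lower. At day 53 in FVB, 2 were higher and 5 lower (median -0.16), where 25.9% of all genes were higher and 27.8% lower, so the lower count was no more than the background. Hyou1 stood at -0.62 and -0.55 on these days (adjusted p = 0.00207 and 0.00599), and Dnajc3, a co-chaperone that inhibits eIF2α kinases, was at -0.59 at day 53 (adjusted p = 3.04e-07). In B6 at day 2, 3 were higher and 4 lower, against 20.2% and 24.4% of all genes, and at day 53, 1 was higher. With equal array medians the FVB counts became 0 higher and 11 lower at day 2, and 1 and 11 at day 53, so the number depended on scaling. Without the pancreas-bearing arrays they were 1 and 7 at day 2, and 2 and 8 at day 53. In sham kidneys 12 of the 21 were higher in FVB than in B6 and 3 lower (median 0.22), where 32.5% of all genes were called and 16.9% were higher in FVB, with Dnajc10 (0.96), Manf (0.77) and Hyou1 (0.66) highest and Cnpy2 (-0.64) lowest. Of 19 ER degradation and secretory genes, 10 were higher and 2 lower in FVB sham kidneys, and of the 19 tRNA synthetases, 12 were higher and 1 lower, against the same 16.9% of all genes higher. After Nx, 3 degradation and secretory genes were higher and 2 lower in FVB at day 2, and 5 and 2 at day 53, which was near or below the shares of all genes (24.8% and 30.0%, 25.9% and 27.8%). Plasma cells carry high levels of ER folding genes, and their 7 markers averaged 5.49 to 7.38 in FVB Nx kidneys at day 53, against 4.13 to 4.27 in FVB sham kidneys, while Tnfrsf17 stood at its lowest value on all 48 arrays. In sham kidneys of both strains their mean was 3.99 to 4.60. The part of plasma cells in the folding genes was not tested.

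**Figure D4:**
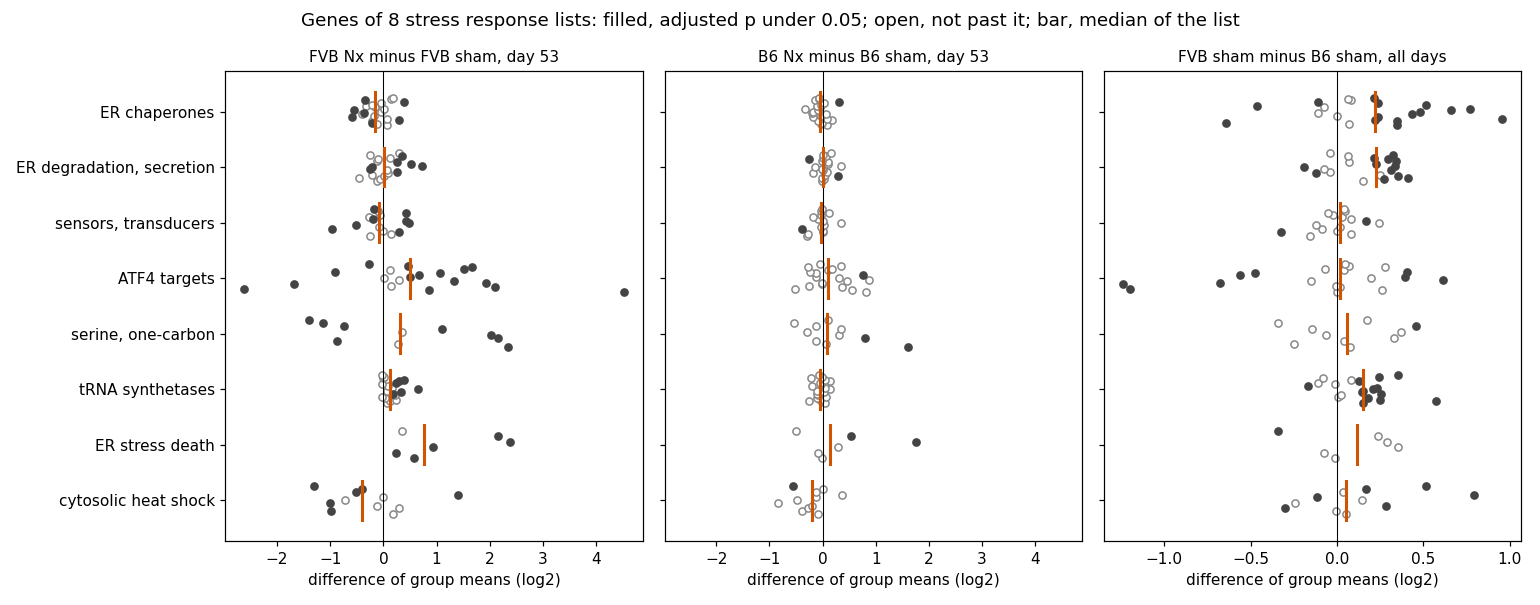
Log2 differences of the genes in 8 pathway lists for FVB Nx minus sham at day 53, B6 Nx minus sham at day 53 and FVB sham minus B6 sham. Filled points had an adjusted p under 0.05 and the bar is the list median; ATF4 targets lie mostly right of 0 in FVB at day 53 (11 higher, 4 lower), and ER chaperones lie mostly right of 0 in the sham strain comparison (12 higher, 3 lower).

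Among 6 genes of ER stress-linked cell death, 4 were higher in FVB at day 2, 2 at day 28 and 5 at day 53, with none lower, where 24.8%, 7.35% and 25.9% of all genes were higher. The 6 were Bbc3, Pmaip1, Bcl2l11, Casp12, Txnip and Bcl2, the last a gene that opposes cell death. In B6, 3, 1 and 2 were higher on the same days, where 20.2% of all genes were higher at day 2 and 19.0% and 14.7% were called at days 28 and 53. Casp12, a caspase placed at the ER membrane in mice, rose by 2.60 at day 2 and 2.38 at day 53 in FVB and by 1.82 and 1.76 in B6. Pmaip1, which encodes the BH3-only protein NOXA, rose by 2.16 in FVB and 0.54 in B6 at day 53, and the strain difference was 1.62 (adjusted p = 5.61e-06). Of 15 sensor and eIF2α pathway genes, 3 were higher and 5 lower in FVB at day 2, and 4 each way at day 53, which was close to the 54.8% and 53.7% of all genes called. The eIF2α kinase gene Eif2ak2 rose by 1.41 in FVB at day 2, and Eif2ak3, which encodes PERK, rose by 0.42 at day 53. Of 11 cytosolic heat shock genes, which answer to a separate stress pathway, none was higher and 4 were lower in FVB at day 2, and 1 was higher and 5 lower at day 53, where 30.0% and 27.8% of all genes were lower. Hsph1 stood at -0.92 and -1.31 on these days, and Hspb1 was the gene that rose at day 53, by 1.40.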

How the data were processed

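Whole-kidney RNA of 48 mice was measured on Affymetrix arrays, 1 per mouse, with 4 mice in each of 12 groups of strain, surgery and day. The deposited values are on a log2 scale. The submitters' processing notes name MAS5 without a role, and the normalization of the values is not given in the sources used here. Per the labels' protocols the authors inspected array quality plots, with no array dropped. No scan date is in the files used here. The number of arrays limits the precision, and mice count as replicates because the labels number them separately.

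Of 45101 probe sets, 64 were controls, 34958 named 1 gene, 932 several and 9211 were not listed in the platform annotation. Probe sets above the 40th percentile of all values (2.28) on at least 4 arrays were kept (29213), and the probe set with the highest mean stood for each of 13174 genes. limma 3.58.1 (R 4.3.3) fitted 12 group means with trended variance, and 14 contrasts were tested with Benjamini-Hochberg adjustment at 0.05. On simulated data for FVB at day 2 (200 of 13174 genes changed) the fit recovered 93% of genes changed by 1 on the log2 scale and 100% of those changed by 2, with 9 false calls. The changed genes were drawn from those well above the floor, with independent normal noise. The recovery therefore does not cover genes at the floor such as Trib3 and Chac1, or differences under 1. Far fewer genes changed than the 54.8% called in the data. Figures were drawn with matplotlib 3.10.9.

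Promoter windows came from RefSeq (GRCm38.p6). From each list up to 3 called genes with the highest and 3 with the lowest difference were named. For each member the gene with the highest correlation of 12 group means was named, unnamed gene models aside, and for Hspa5, Asns and Trib3 also the next. The members and gene lists were chosen with earlier results of these data known. The alternatives were other filters, scalings, probe sets, weights and array sets, a pancreas covariate, a block by mouse number and the omission of each array. No arrays were identical (pairwise correlations 0.957 to 0.998).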

Additional observations from a re-analysis of the deposited data

Results flagged for a closer look

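The Nx effect at day 53 differed between the strains for Atf4 (FVB minus B6, 1.01) and Asns (1.87), both by an interaction test in limma. The FVB effect at day 28 differed from that at day 2 for Herpud1 (1.02) and Creld2 (0.82), and the effect at day 53 from that at day 28 for Xbp1 (0.40). A signal outside the probe sets used for the members appeared on a second Trib3 probe set, which lay 0.68 above sham in FVB Nx kidneys at day 53. That probe set passed the filter on low values only through this group.

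In 13 of 110 sets of 4 mice, 1 mouse stood far from the other 3, where chance gives about 1 in 20. Most of these were in genes at the floor, where values hardly differ. For Trib3 they were FVB Nx mouse 2 at day 28 (2.60), FVB sham mouse 5 at day 2 (2.32), B6 Nx mouse 2 at day 53 (2.41) and B6 sham mouse 3 at day 28 (2.45). For Chac1 they were FVB Nx mouse 7 at day 28 (2.22), FVB sham mouse 4 at day 28 (2.44), FVB sham mouse 6 at day 53 (2.92), B6 Nx mouse 5 at day 2 (2.20), B6 Nx mouse 4 at day 28 (2.29), B6 Nx mouse 4 at day 53 (2.20) and B6 sham mouse 3 at day 28 (2.22). Of the measured genes, Herpud1 in B6 sham mouse 3 at day 28 read 11.46 where the other 3 read 12.07 to 12.17, and Sdf2l1 in B6 Nx mouse 3 at day 28 read 8.68 where the other 3 read 7.86 to 7.92. Without that B6 sham mouse, the Herpud1 difference in B6 at day 28 was -0.69 (adjusted p = 0.0211, limma), against -0.53 (adjusted p = 0.0682) with it.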

How the results depend on the processing

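Of the members' differences under all alternatives, 3177 kept their direction and side of the threshold, 74 passed it newly and 61 lost it. The sign changed, or the difference became or ceased to be 0, in 180, of which 177 were not called before or after and 3 were called on at least 1 side. Those 3 were Trib3 in FVB at day 2 with equal array medians (-0.15), Chac1 in FVB at day 2 without the pancreas-bearing arrays (0) and Trib3 between days 53 and 28 in FVB without them (-0.26). All 3 were in genes near the floor, where Trib3 read 2.41 on 41 of 48 arrays and Chac1 read 2.20 on 35. The cause was not tested. With equal medians the members called numbered 1 in B6 at day 28, 1 in B6 at day 53, 1 for the strain difference at day 2 and 0 between days 53 and 28 in FVB. Without a filter they were 1 between days 28 and 2 and 0 between days 53 and 28 in FVB, and with a stricter filter 1 in B6 at day 53. With the arrays of each comparison alone they were 2 in B6 at day 53 and 1 for the strain difference at day 2. With array weights, and with the enzyme covariate, they were 1 in B6 at day 53. Without the pancreas-bearing arrays they were 0 in B6 at day 2, 2 in B6 at day 28, 1 for the strain difference at day 28, 4 between days 28 and 2 and 2 between days 53 and 28 in FVB. The mean of all probe sets gave 1 in B6 at day 28, and the second probe set 1 in B6 at day 2, 1 in B6 at day 28 and 2 between days 53 and 28 in FVB. Those last 2 include the second Trib3 probe set (0.68), which passed the filter only through FVB Nx kidneys at day 53. Its calls are therefore not a result, and they are also among the 74 above.

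Leaving out each array in turn gave 4 to 6 members called in FVB at day 2, 1 at day 28 and 3 to 6 at day 53, and 2 to 4, 0 to 1 and 0 to 1 in B6. It gave 0 to 1, 0 and 1 to 3 for the strain difference at days 2, 28 and 53, 1 to 3 between days 28 and 2 and 0 to 2 between days 53 and 28 in FVB, and 5 to 7 between sham strains. Mice with the same number correlated between -0.25 and 0.38 over 10 Nx and sham pairs of mice, so the pairing was not shown. With the mouse number as a random replicate block (consensus correlation 0.126) the members called were 1 in B6 at day 28 and 1 for the strain difference at day 2, and newly called were Herpud1 in B6 at day 28 (-0.54), Creld2 for the strain difference at day 2 (-0.92), Sdf2l1 in FVB at day 2 (-0.50) and Xbp1 between days 28 and 2 in FVB (-0.36).

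Over all genes, the share of calls that were higher after Nx was 45.3%, 45.5% and 48.2% in FVB at days 2, 28 and 53 as deposited and 26%, 33.5% and 29.1% with equal medians. In B6 it was 45.2%, 51.9% and 54.6% as deposited and 28%, 33.9% and 41.8% with equal medians. Genes called moved by over 1.5 times in these settings. Without the pancreas-bearing arrays they were 635 against 2129 in FVB at day 28, 1003 against 17 for the strain difference at day 28, and 987 against 0 between days 53 and 28 in B6, where dropping the filter gave 1. With the arrays of each comparison alone they were 839 against 2501 in B6 at day 28, and 324 against 581 and 3 against 17 for the strain difference at days 2 and 28. With array weights they were 3288 against 1938 in B6 at day 53, 2521 against 1167 between days 28 and 2 in B6 and 30 against 17 for the strain difference at day 28, where the second probe set gave 28.

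The number of arrays limits the precision, and Trib3 and Chac1 were limited by signal at the floor.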
